A study of Mus musculus with 7 samples.

Results

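Fos binding in mouse hippocampus was examined near 8 genes that encode partners of the AP-1 transcription factor: Atf2, Atf3, Atf4, Batf, Batf3, Maff, Mafk and Mafg. The rule that chose them used their names, with earlier results of these data known, and they are 8 of 21887 protein-coding genes in the gene table used. A peak counted for a gene when it lay within 50 kb of the span of the gene, and 57 merged regions met this rule.

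Binding was measured by chromatin immunoprecipitation followed by sequencing (ChIP-seq) with a monoclonal antibody against Fos. All animals were wild-type C57BL/6J mice aged 2 months. The kainic acid group (3 libraries) received kainic acid, a glutamate receptor agonist that provokes seizures, as 2 intraperitoneal injections of 10 mg/kg spaced 30 min apart. Its hippocampi were taken 1 hour after the first injection from animals with level 4 seizures. The saline group (3 libraries) received saline (PBS), and 1 input library was made from saline tissue without antibody, of which no peak list was analysed here. Neither the number of animals behind a library nor whether libraries came from separate animals is stated, so the spread between libraries may be technical. Whole hippocampus mixes many cell types, so a weak peak in many cells and a strong peak in few cannot be told apart. RNA was not measured, so the tissue could not be checked against marker genes, and nothing here gives the expression of the 8 genes.

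Fos and Jun proteins carry a basic leucine zipper (bZIP), through which they form the AP-1 dimers that bind DNA after strong neuronal activity. Atf2, Atf3 and Atf4 are bZIP proteins of the Atf/Creb family. Atf2 pairs with Jun and is activated by stress kinases, Atf3 is made rapidly after stress or injury, and Atf4 is the main effector of the integrated stress response. Batf and Batf3 are short bZIP proteins that pair with Jun and are best known in lymphocytes and dendritic cells. Maff, Mafk and Mafg are the small Maf proteins, which lack an activation domain of their own and pair with CNC proteins such as Nfe2l2, with Bach proteins and with Fos. AP-1 dimers prefer the motif TGANTCA, and Atf/Creb dimers prefer TGACGTCA.

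Of the 8 genes, 3 had a promoter window overlapped by peaks of at least 2 kainic acid libraries, and the 4 windows concerned are shown. Each is the RefSeq window of GRCm38.p6 from 250 bases before a start site to 50 bases after it, read along the gene. Capitals mark matches on either strand to TGACGTCA or to its part TGACGT. Maff has 2 such windows, on the plus strand. The one at its first start site, chr15:79346371-79346670, held peaks of kainic acid replicates 2 and 3, and the one at its second, chr15:79347270-79347569, held a peak of all 3 kainic acid libraries. The Atf3 window is chr1:191183284-191183583, minus strand, and the Mafk window is chr5:139791286-139791585, plus strand. The Atf3 and Mafk windows held peaks of kainic acid replicates 2 and 3, and the Mafk window also held a peak of saline replicate 2. In these windows and the first Maff window, the peaks of kainic acid replicate 3 overlapped the window but did not cover the start site itself.
Maff first: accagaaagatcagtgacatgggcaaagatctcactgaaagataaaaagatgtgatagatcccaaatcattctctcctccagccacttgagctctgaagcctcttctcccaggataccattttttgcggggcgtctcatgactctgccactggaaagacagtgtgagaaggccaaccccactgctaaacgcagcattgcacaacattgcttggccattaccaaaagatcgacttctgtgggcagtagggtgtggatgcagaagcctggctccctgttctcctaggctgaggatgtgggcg
Maff second: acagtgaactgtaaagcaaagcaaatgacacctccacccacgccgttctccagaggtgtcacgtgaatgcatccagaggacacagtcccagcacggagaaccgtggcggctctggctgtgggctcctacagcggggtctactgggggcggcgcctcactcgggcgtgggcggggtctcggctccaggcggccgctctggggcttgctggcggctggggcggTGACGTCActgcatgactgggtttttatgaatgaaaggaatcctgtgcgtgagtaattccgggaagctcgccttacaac
Atf3: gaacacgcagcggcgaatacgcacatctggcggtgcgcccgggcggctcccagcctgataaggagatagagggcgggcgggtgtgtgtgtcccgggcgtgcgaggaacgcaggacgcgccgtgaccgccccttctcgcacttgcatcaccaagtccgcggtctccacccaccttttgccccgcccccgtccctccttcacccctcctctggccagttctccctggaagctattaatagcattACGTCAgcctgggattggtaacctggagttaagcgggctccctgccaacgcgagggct
Mafk: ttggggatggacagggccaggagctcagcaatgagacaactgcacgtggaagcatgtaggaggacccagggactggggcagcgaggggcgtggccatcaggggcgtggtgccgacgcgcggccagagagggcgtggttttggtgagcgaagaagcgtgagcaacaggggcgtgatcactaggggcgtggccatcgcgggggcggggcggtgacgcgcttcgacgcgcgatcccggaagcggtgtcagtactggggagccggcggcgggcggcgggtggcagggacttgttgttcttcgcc

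None of the 10 promoter windows of the 8 genes held TGANTCA on either strand. Of 21263 windows of protein-coding genes, 6.99% held it, and of the 755 windows under peaks of at least 2 kainic acid libraries 27.9% did. Maff was the only 1 of the 8 genes with TGACGTCA, which began 29 bases before its second start site and occurs in 2.23% of all windows and in 3.97% of those 755. The shorter TGACGT, which every TGACGTCA contains, was found in a window of Atf3 (8 bases before the start site), Batf (98 bases), Mafg (22 bases) and Maff. It occurs in 8.49% of all windows and in 14.3% of those 755. The first Maff window and the Mafk window held no match to any of these motifs. A match is a description of the letters and does not show a bound site.

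Every 1 of the 8 genes had Fos regions after kainic acid. A region is a stretch of overlapping peaks, merged over all 6 lists. All 8 genes had a region with a peak in at least 2 kainic acid libraries, against a background of 62.7% of all protein-coding genes and 64.6% of the 15719 genes with a span between the shortest and longest of the 8. All 8 also had a region in all 3 kainic acid libraries, against 42.5% of all genes. Regions in at least 2 of these libraries numbered 7 for Atf3, 4 for Maff, 3 each for Atf2, Atf4 and Mafk, 2 for Mafg and 1 each for Batf and Batf3. Their median was 3, beside a median of 1 (quartiles 0 and 3) over all genes. Atf3 therefore stood high, with more regions than 94.0% of all genes, and Batf and Batf3 stood at the median.

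**Figure D1:**
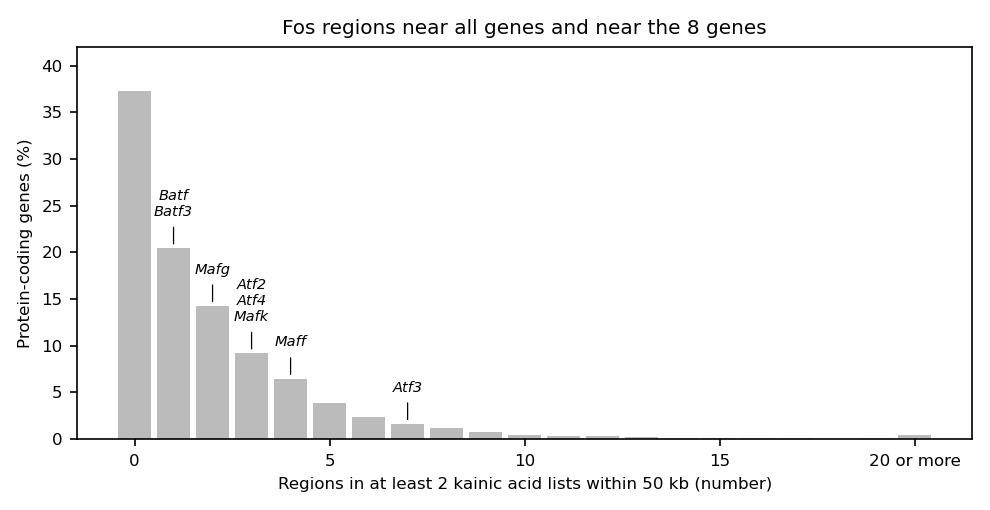
Share of all 21887 protein-coding genes (vertical axis, %) with a given count of regions within 50 kb that 2 or 3 kainic acid lists share (horizontal axis); genes with 20 or more are pooled in the last bar. The 8 genes are written above their bars, from Batf and Batf3 at 1 to Atf3 at 7.

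The support of these regions by replicates was uneven. Of the 57 regions, 11 had peaks of all 3 kainic acid libraries, 13 of exactly 2 and 32 of only 1, and 1 had a saline peak alone. Of the 13, kainic acid replicate 1 was missing from 12 and replicate 3 from 1. Of the 32, replicate 2 alone gave 28 and replicate 3 alone gave 4. The whole lists hold 15009, 63197 and 29650 peaks for kainic acid replicates 1, 2 and 3, so the longest list gave most of the unshared regions. Each of the 8 genes had a peak of each of these lists, where 46.3%, 77.4% and 63.3% of all genes had 1. The 24 regions in at least 2 lists fell to 11 without replicate 2 and to 12 without replicate 3, while all 8 genes kept at least 1 region in each case. The 11 regions were 45.8% of the 24, close to the 44.4% of all 26862 such regions of the series.

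The number of peaks near a gene was then compared between kainic acid and saline. Near any of the 8 genes there were 12, 52 and 28 peaks in kainic acid replicates 1, 2 and 3 and 0, 8 and 0 peaks in saline replicates 1, 2 and 3. All 3 kainic acid libraries were above all 3 saline libraries, but saline replicates 1 and 3 hold only 7 and 2 peaks in the whole genome. Per 1000 peaks of the list, the kainic acid libraries had 0.800, 0.823 and 0.944 peaks near these genes and saline replicate 2 had 2.44. On that scale saline replicate 2 lay above every kainic acid library, and saline replicates 1 and 3 were at 0. A peak of saline replicate 1 lay near 0.032% of all genes, and saline replicate 3 had none near any gene, so neither could show much here.

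Gene by gene, the groups separated for only some. Every kainic acid list had more peaks than every saline list for 4 of the 8 genes, Atf4, Batf, Batf3 and Mafg, against 33.5% of all genes. Atf4 had 3, 10 and 2 peaks in the kainic acid lists, Batf had 1, 2 and 3, Batf3 had 1, 2 and 2, and Mafg had 2, 4 and 2. In the saline lists Atf4 and Mafg had 1 peak each, of replicate 2, and Batf and Batf3 had none. For Atf2, Atf3, Maff and Mafk the groups touched or overlapped, because kainic acid replicate 1 had no more peaks there (1, 1, 2 and 1) than saline replicate 2 (1, 1, 2 and 2). Without saline replicate 2 all 8 genes separated, against 44.8% of all genes. Saline replicates 1 and 3 had 0 peaks near these genes. That count therefore only restates that each gene had a peak of every kainic acid list.

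The difference in mean log10(number of peaks + 1), kainic acid minus saline, ran from 0.418 for Batf3, with means of 0.418 ± 0.102 (SD, n = 3) after kainic acid and 0 in every saline library, to 0.634 for Atf3, with means of 0.735 ± 0.379 (SD, n = 3) and 0.100 ± 0.174 (SD, n = 3). In a two-sided exact permutation test over 20 assignments of the libraries, p was 0.1 for Atf4, Batf, Batf3 and Mafg and 0.2 for Atf2, Atf3, Maff and Mafk. The smallest p that 3 libraries against 3 allow is 0.1, so no gene could have reached 0.05 in these 8 tests. The direction depended on the scale. As peaks per 1000 peaks of the list, the difference was −0.0501 for Maff, −0.110 for Mafk and −0.0137 for Mafg, below 0, and it stayed above 0 for the other 5 genes. For Atf2, Atf3 and Atf4 among these, the saline mean took in replicates 1 and 3 at 0. Saline replicate 2 alone lay above every kainic acid library there. Only Batf and Batf3 had no saline peak.

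**Figure D2:**
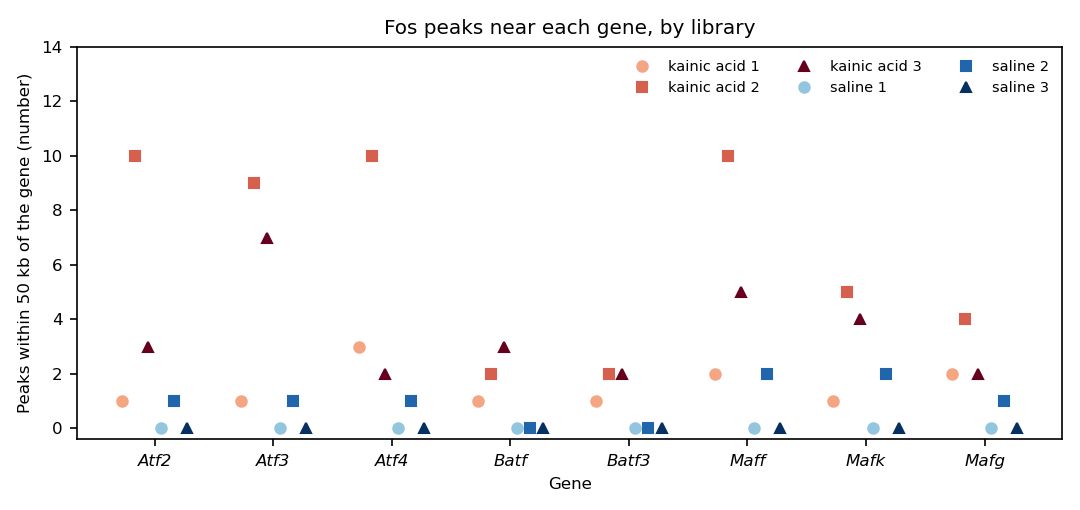
Number of peaks within 50 kb of each gene (vertical axis) in each of the 6 libraries, 1 point per library; red tones are kainic acid and blue tones saline. Kainic acid replicate 2 reaches 10 peaks at Atf2, Atf4 and Maff, and saline replicates 1 and 3 are at 0 for all 8 genes.

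The strength of a peak was read from the deposited fold, the authors' ratio of a peak to a background within 1 library. That background, solved from the deposited fold and p, was not always local. In kainic acid replicate 2 it was the same, 2.71, for the best regions of Atf4, Mafk and Atf3, which lie on different chromosomes. A region with fewer reads over a low background can thus have a higher fold than one with more reads. Since folds are not scaled between libraries, each was also given as a percentile rank within its list, where 0 is the highest fold. Where a list had several peaks in a region, the highest fold is given. The 24 regions had a median mean percentile of 34.6, beside 41.9 for all 26862 regions of the series with the same support. The best region of a gene had a median of 11.3 over the 8 genes, beside 24.7 over the 13733 genes that have a region. A best value tends to be lower where a gene has more regions, and the genes were not matched for that number. These are descriptions of 8 genes, and no test was made. By the order of their best regions the genes ran Mafk (4.43), Batf3 (7.63), Maff (8.34), Atf4 (9.24), Atf3 (13.5), Mafg (27.7), Atf2 (31.8) and Batf (36.2). The mean for Atf3 lacks kainic acid replicate 1, which had no peak in that region. The order changed with the libraries used. Without kainic acid replicate 1 the best mean was 0.219 for Atf4, 2.24 for Mafk, 2.49 for Batf3 and 5.43 for Mafg, so Atf4 came first. Leaving out each kainic acid library in turn gave 0.219 to 13.8 for Atf4, 5.43 to 39.8 for Mafg and 2.49 to 10.5 for Batf3. Ranked by −log10 q instead of fold, Atf3 came first at 4.83, which need not be its best region by fold. That region had −log10 q of 29.3 and 9.46 in kainic acid replicates 2 and 3. Another Atf3 region, 41.2 kb upstream and with a saline peak, had 53.4 and 35.5. Neighbours in the order by fold did not differ beyond the spread between libraries, which was 3.90 (SD, n = 3) for Mafk and 28.0 for Batf.

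**Figure D3:**
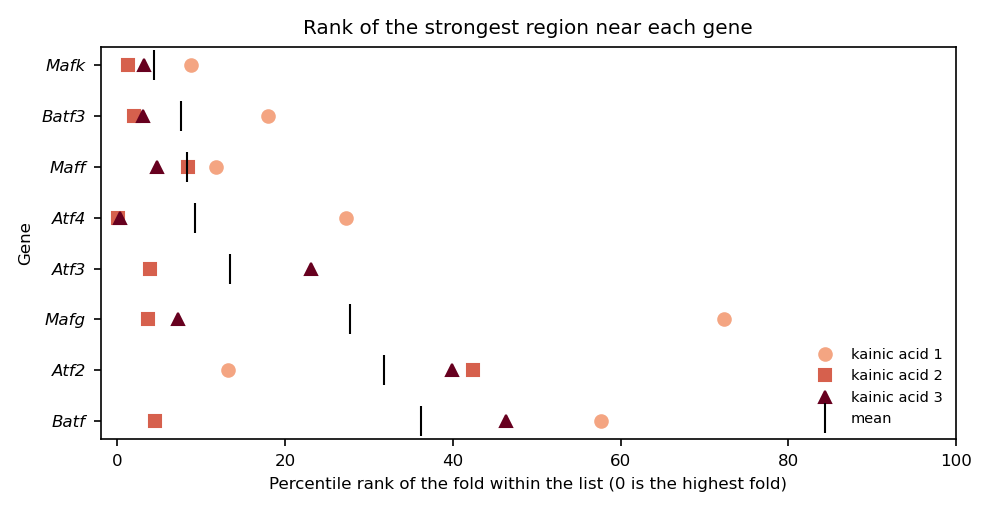
Percentile rank of the fold within its list (horizontal axis, 0 is the highest fold) for the region of best mean rank near each gene (vertical axis), 1 point per kainic acid library and a black bar at the mean. Mafk and Maff have all 3 libraries below 12, Batf and Mafg are spread widely, and the region of Atf3 has no peak in kainic acid replicate 1.

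Among the Atf genes, Atf3 had Fos regions at its start site and in a stretch upstream, and none further into the gene. Atf3 (chromosome 1, 191170296 to 191183333, minus strand) had 7 regions. The first 2 flanked the start site, with summits 207 bp inside the gene and 445 bp before it, and the next 2 lay 3.60 and 6.75 kb upstream. The summit of a region is the median of the summits of the highest peak of each kainic acid list in it. The other 3 lay 32.9, 38.7 and 41.2 kb upstream, outside any protein-coding gene, with Atf3 as the nearest. Kainic acid replicate 1 had a peak only in the farthest of these regions, so the other 6 rest on replicates 2 and 3.

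The region 32.9 kb upstream of Atf3 (chromosome 1, 191215900 to 191216609) was the best ranked. Its fold was 11.1 in kainic acid replicate 2 (rank 2437 of 63197) and 5.16 in replicate 3 (rank 6835 of 29650). The region 41.2 kb upstream (191224231 to 191225002) was the only 1 in all 3 lists and also had a saline peak. Its fold was 4.78, 9.08 and 6.41 in kainic acid replicates 1, 2 and 3 and 3.84 in saline replicate 2. The reads over its summit, solved from the deposited fold and p, were 48, 91 and 81 after kainic acid and 30 in saline replicate 2. These reads are not scaled for library depth. The background solved with them was 9.25, 9.13 and 11.8 after kainic acid and 7.07 in saline replicate 2. The region 32.9 kb upstream had 40 and 25 reads in kainic acid replicates 2 and 3, over backgrounds of 2.71 and 4.03. Its better rank by fold therefore came with fewer reads. At the start site the folds were lower, 5.64 and 3.13 in replicates 2 and 3 for the region inside the gene and 5.23 and 3.77 for the region before it.

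Atf4 combined weak peaks at the gene with a strong region far downstream, inside another gene. Atf4 (chromosome 15, 80255184 to 80257545, plus strand) is the shortest of the 8 genes. Its start-site region (80253787 to 80255000) lay between Atf4 and Mief1. It had folds of 4.17 and 4.24 in kainic acid replicates 1 and 2, with summits 731 and 348 bp upstream, and no peak in replicate 3. A region 21.0 kb downstream had folds of 3.00, 5.14 and 3.24. The strongest region lay 46.4 kb downstream (80303485 to 80304593), within the span of Cacna1i, which encodes a T-type calcium channel.

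In that Cacna1i region the fold was 5.21, 23.5 and 14.1 in kainic acid replicates 1, 2 and 3. These were ranks 4098, 90 and 89, so replicates 2 and 3 placed it among their highest 0.3% and replicate 1 only at the percentile of 27.3. Saline replicate 2 had a fold of 5.23 there, rank 318 of 3277. Within 10 kb of Atf4 the best region was the start-site region, with a mean percentile of 56.7, so the high rank of Atf4 came from a region nearer to another gene.

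The 3 Atf2 regions in at least 2 kainic acid lists lay inside the gene or beyond its end, and not at its start. The gene table gives no exons, so introns and exons cannot be told apart. Atf2 (chromosome 2, 73816509 to 73892677, minus strand) is the longest of the 8 genes, with a span of 76.2 kb. Its 1 region in all 3 lists lay 31.1 kb inside the gene (73861138 to 73861831), with folds of 6.30, 4.68 and 4.33. Kainic acid replicate 1 ranked it highest, at the percentile of 13.2, against 42.4 and 39.9 in replicates 2 and 3. The other 2 regions, 24.0 kb inside the gene and 35.7 kb beyond its end, were in replicates 2 and 3 at percentiles of 84.1 to 99.2, among the weakest peaks of their lists. Near its start site, Atf2 had a peak of kainic acid replicate 2 (fold 4.40) that merged with a peak of saline replicate 2 (fold 3.92), and no other library had one.

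The Batf genes had 1 region each in at least 2 kainic acid lists, and no saline peak. Batf3 (chromosome 1, 191098414 to 191108943, plus strand) carried its region 4.70 kb inside the gene (191102685 to 191103605). The fold there was 5.78, 13.4 and 8.88 in kainic acid replicates 1, 2 and 3, at ranks 2690, 1221 and 903. The reads over the summit were 25, 57 and 50. Replicates 2 and 3 thus placed it among their top 4%, and replicate 1 at the percentile of 17.9.

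Batf (chromosome 12, 85686720 to 85709087, plus strand) had no such region inside or at the gene. Its region lay 36.8 kb beyond its end (85745670 to 85746332) and ended 207 bp before the span of Flvcr2, a transporter gene. The fold was 4.17, 10.6 and 4.12 in kainic acid replicates 1, 2 and 3, and the percentiles of 57.7, 4.45 and 46.3 show how far replicate 2 stood from the others. Batf was the only gene of the 8 without a region within 10 or 25 kb. Batf3 and Atf3 are neighbours 61.4 kb apart, and their windows share 38.6 kb, which held 0 peaks, so no region was counted for both.

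The small Maf genes all carried a region in all 3 kainic acid lists inside the gene. Mafk (chromosome 5, 139791536 to 139802653, plus strand) had the summits of all its peaks, saline and kainic acid, between 356 bp before its start site and 6.70 kb inside the gene. Its best region lay 5.49 kb inside (139796575 to 139797804), with folds of 6.96, 14.8 and 8.74 in kainic acid replicates 1, 2 and 3, at ranks 1320, 814 and 950. The reads over the summit were 28, 54 and 43. All 3 libraries placed it among their top 9%, the most even ranking of the best regions together with that of Maff.

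A second Mafk region covered the start site (139790994 to 139791998). Its fold was 5.87 and 4.24 in kainic acid replicates 2 and 3 and 5.42 in saline replicate 2, where it ranked 226 of 3277. The replicate 3 peak of that fold began past the start site, with its summit 229 bp inside the gene. The third, 6.62 kb inside, had folds of 6.75 and 5.76 in the same 2 kainic acid replicates. Kainic acid replicate 1 had neither.

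Maff (chromosome 15, 79346621 to 79359078, plus strand) had regions at its start sites and upstream. RefSeq gives 3 start sites, and the region at the second (79346897 to 79347934), whose promoter sequence is printed above, was in all 3 lists. Its fold was 4.39, 9.91 and 6.31 in kainic acid replicates 1, 2 and 3, at percentiles of 49.4, 5.56 and 11.8, and the reads over the summit were 29, 60 and 49. A weaker region at the first start site had folds of 3.12 and 3.13 in replicates 2 and 3. Their summits lay 115 bp after and 282 bp before that site, and the peaks overlapped only at their ends.

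The best ranked Maff region lay 13.1 kb upstream (79333208 to 79333891), between Pla2g6 and Maff and nearer to Pla2g6 (4.82 kb) than to Maff (12.7 kb). Within 10 kb of Maff the best region was that of the second start site, with a mean percentile of 22.3. The fold of the upstream region was 6.48, 8.64 and 7.95 and its percentiles were 11.8, 8.44 and 4.78, so the 3 libraries placed it alike. No saline library had a peak there. A region 18.5 kb upstream overlapped the span of Pla2g6, a phospholipase gene, with folds of 9.86 and 3.49 in kainic acid replicates 2 and 3 and of 3.53 in saline replicate 2. Downstream, a region within Tmem184b (79368559 to 79368945) had a fold of 4.70 in saline replicate 2, at the percentile of 24.2, and of 3.49 in kainic acid replicate 2, at 81.2.

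Mafg (chromosome 11, 120625117 to 120634955, minus strand) had 2 regions, both in all 3 lists and neither with a saline peak. The first lay 496 bp after its start site (120632696 to 120633507), with folds of 3.83, 11.3 and 7.17 and 33, 84 and 81 reads over the summit. Replicate 1 ranked it at the percentile of 72.3 and replicates 2 and 3 at 3.64 and 7.22, a wide split between libraries. The second lay 14.9 kb upstream and overlapped Myadml2, with folds of 3.68, 6.31 and 3.92. At the other end of Mafg, a peak of saline replicate 2 (120625171 to 120625449, fold 4.37) overlapped no kainic acid peak.

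**Figure D4:**
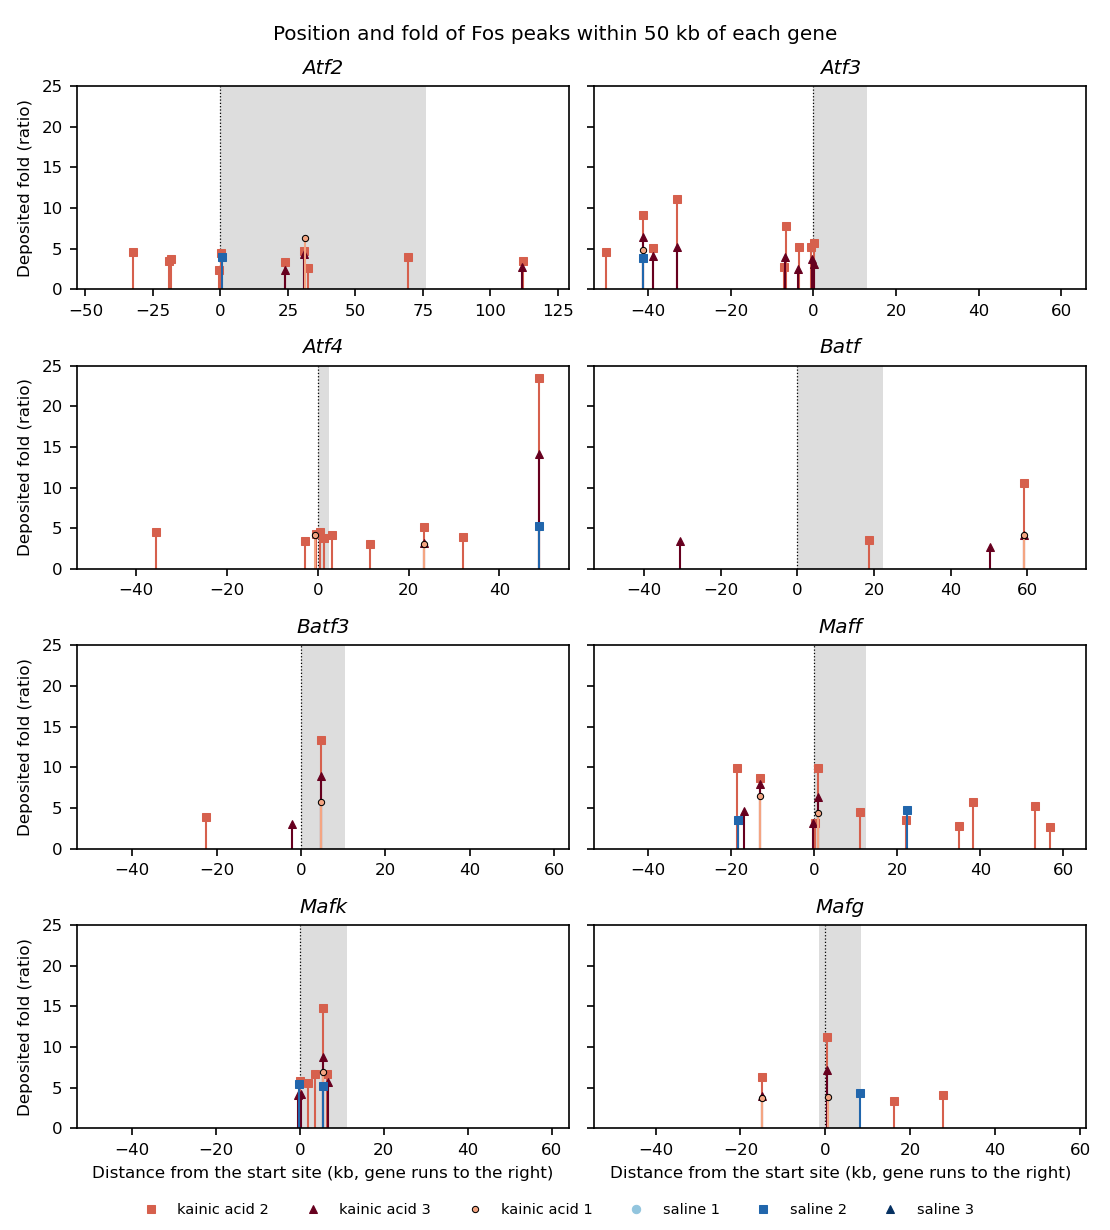
Fold of each peak as deposited (vertical axis, ratio) against the distance of its summit from the most upstream start site (horizontal axis, kb, gene running to the right) for the 8 genes, by library; grey marks the gene span. Atf3 peaks lie at and before the start, Mafk peaks near it and inside the gene, and the highest fold, 23.5, lies 48.8 kb after the start of Atf4, where the marker of saline replicate 2 covers that of kainic acid replicate 1.

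Binding inside the genes and at their promoters was then counted over the group. A region shared by 2 or 3 kainic acid lists overlapped the span of 6 of the 8 genes, all but Atf4 and Batf, against 28.5% of all genes. A promoter window under peaks of at least 2 kainic acid lists was found for 3 of the 8, Atf3, Maff and Mafk, against 3.85% of the 17492 genes with a window. The differences from these shares were not tested. Without kainic acid replicate 2 or without replicate 3 the promoter count was 1, Maff. With a peak of any kainic acid list it was 5, adding Atf4 and Mafg, against 13.8%. By summit, 9 of the 24 regions lay inside the gene, 11 upstream and 4 downstream, and 7 of the 24 were nearer to another protein-coding gene than to the gene they were counted for.

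Saline peaks came from replicate 2 alone. Such a peak lay near 6 of the 8 genes, all but Batf and Batf3, against 30.2% of all genes, and over the promoter window of 1, Mafk, against 6.89%. Of the 24 regions, 5 had a saline peak and 19 (79.2%) had none, where 98.0% of all 26862 such regions had none. The 5 were the upstream Atf3 region, the Cacna1i region counted for Atf4, the Pla2g6 region counted for Maff, and the start-site and inner regions of Mafk. Since the other saline lists are nearly empty, this rests on 1 library. The reads over the summit of the 8 saline peaks ran from 14 to 30, with a median of 18.5, and those of the kainic acid peaks near these genes from 13 to 91. They are not scaled for library depth, so the ranges do not compare binding between groups.

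Other bZIP genes, grouped by family, gave a wider view. Over all protein-coding genes, 62.7% had a region in at least 2 kainic acid lists within 50 kb, and the median was 1 region (quartiles 0 and 3). All 7 core AP-1 genes had a region in at least 2 kainic acid lists within 50 kb, with a median of 6 regions, and the best mean percentile among them was that of Fosb, at 1.14 with 12 regions. All 10 other Atf, Creb and Jdp genes had one, with a median of 3, and the best was Jdp2 at 2.37. Jdp2 encodes a repressor that pairs with Jun, and it lies next to Batf. All 6 CNC and Bach genes, which encode partners of the small Mafs, had one too, with a median of 2, and the best was Nfe2l1 at 2.47. A region in all 3 lists was found for 7 of 7 core AP-1 genes, 5 of 10 other Atf, Creb and Jdp genes and 5 of 6 CNC and Bach genes, beside 8 of 8 genes here and 42.5% of all genes. These differences between lists were not tested.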

How the data were processed

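The data were 6 deposited narrowPeak lists of Fos ChIP-seq, 1 per library. Per the submitters' processing notes, the authors used Trim Galore 0.6.4, Bowtie2 2.3.4.3, MACS2 and deepTools 3.5.0 with the build mm10 (GRCm38). Per the peak names, alignments were filtered at a mapping quality of 30. The control and cutoff of the calling are not given in the sources used here. The deposited fold is a ratio to a background that was not always local. The fold and the deposited −log10 p and q each belong to 1 library, and served here to rank, select or describe peaks of that library only. The deposited score was not used. A missing peak means not called, which is not the same as unbound.

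Peaks overlapping by at least 1 bp were merged over the 6 lists with Python 3.11.15, pandas 2.3.3 and SciPy 1.17.1. Gene spans, start sites and promoter windows came from RefSeq GRCm38.p6 tables, where all 8 genes matched by symbol. Regions were ranked by the mean percentile of the fold over the kainic acid lists that hold them. Reads over a summit were solved from the fold, taken as reads plus 1 over background plus 1, and from p, taken as the Poisson upper tail. All 100 of 100 peaks near the genes gave a whole number of reads, within 0.001 in −log10 p and in proportion above a −log10 p of 10. Library read totals were not used. On simulated sites set far apart, merging by 1 bp returned 3012 of 3012 regions. The alternative rule, an overlap of 50% of the shorter peak, returned 2982. Close neighbours were not simulated, so this does not show how merging handles them. The solver returned 2000 of 2000 pileups made with its own formulas, at backgrounds lower than some solved here. That checks the arithmetic only.

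The genes and lists were chosen with earlier results of these data known, and all 8 genes are named. For each gene, the region of best mean rank, regions in all 3 kainic acid lists and regions with a saline peak were given. The promoter counts and the count of separated genes were added after the data were seen. Alternatives changed the reach, the −log10 q, the overlap, the lists needed, the list lengths and the libraries used. A further list of bZIP genes is not reported here.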

Additional observations from a re-analysis of the deposited data

How the results depend on the processing

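The finding that every 1 of the 8 genes had a region in at least 2 kainic acid lists was examined under other settings. It held for 8 of 8 with any 1 kainic acid library left out and with all 3 lists required. The same count was found with both other overlap rules, with equal list lengths and with a reach of 100 kb. It was 7 of 8 with a reach of 10 or 25 kb (none near Batf) and with −log10 q of at least 10 (none near Atf2). The number of regions, 24, was 14 with a reach of 10 kb and 38 with 100 kb, 9 with −log10 q of at least 10, 11 with all 3 lists required and 13 with equal numbers of kainic acid peaks. Leaving out 1 kainic acid library gave 11 to 23. Leaving out a saline library did not change the number of regions or of genes with a region. For saline replicates 1 and 3 it could not, as they had 0 peaks near these genes. The share without a saline peak was 100% with −log10 q of at least 10, where no saline peak near these genes remains, and 72.7% to 100% with 1 library left out, the last without saline replicate 2. The count of genes with a promoter window under at least 2 lists, 3, was 1 (Maff) with −log10 q of at least 10, with all 3 lists required and with equal list lengths, and 1 to 3 with a kainic acid library left out. The count of genes whose groups separated, 4, was 1 (Batf3) with a reach of 10 kb and 4 to 8 with 1 library left out. It was 8 without kainic acid replicate 1. Without saline replicate 2 it was also 8, and could not be lower, since saline replicates 1 and 3 had 0 peaks near these genes. Which genes separated changed with the setting, and with −log10 q of at least 10 they were Atf3, Batf3, Maff and Mafk. The difference in log10(number of peaks + 1) near all 8 genes, 1.12, ran from 0.956 to 1.43 with 1 library left out.

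A plain rate, in peaks per 1000 peaks of the list, was also used, which is not on the log10 scale above. By this rate the difference between group means was 0.0418 over all 8 genes. It reversed for Maff (−0.0501), Mafk (−0.110) and Mafg (−0.0137). Near all 8 genes together, saline replicate 2 had a rate of 2.44, beside 0.800, 0.823 and 0.944 in the kainic acid libraries. The cause of the reversal was not tested. Of 234 alternative values, 208 stayed on the same side or within their limits, 23 moved and 3 reversed. The 208 include values that could not change. Among these are the differences of same-numbered libraries for the 8 genes. Others are values with saline replicate 1 or 3 left out, as those lists had 0 peaks near these genes. They are the counts of regions, of genes with a region and of separated genes, and the share without a saline peak. The permutation tests could not pass 0.05, so they say nothing about stability.

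Both groups number their libraries 1 to 3, with no shared day or litter named. Averaging the differences of same-numbered libraries, as a replicate block, returns the difference of group means by construction and is no check of it. For Atf3 that difference was 0.634. Its p was 0.25 by exact sign flips, a permutation test in which 3 pairs allow no smaller value, and the other 7 genes gave the same p. Deviations of same-numbered libraries correlated over genes at 0.354, 0.347 and 0.0137, and those of different numbers at −0.354 to 0.354. Not every pair passed 0.1, and almost all saline peaks are in replicate 2, so the numbers were not treated as pairs.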
